A study of Mus musculus with 6 samples.

Results

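The genes of the proteasome were examined in early LPre-B cells, large pre-B cells of mouse bone marrow that rearrange the *Igh* locus. Members were taken by symbol, as every gene of the deposited table whose name begins with *Psma*, *Psmb*, *Psmc*, *Psmd*, *Psme*, *Psmf* or *Psmg* and a number, leaving out the immunoproteasome genes *Psmb8*, *Psmb9* and *Psmb10*. There were 46 such genes among the 13426 of the table, out of 54 in the RefSeq annotation, and the 8 others were *Psmb11*, *Psme2b* and 6 annotated pseudogenes. The 46 comprised 8 alpha (*Psma*) and 7 beta (*Psmb*) genes of the 20S core, 6 ATPase genes (*Psmc*), 14 non-ATPase genes of the 19S particle (*Psmd*), 4 activator genes (*Psme*), the inhibitor gene *Psmf1* and 4 assembly genes (*Psmg*). The last 2, *Psmc3ip* and *Psme3ip1*, matched by their letters and encode a recombination factor and a protein that binds PSME3, not subunits. The symbol rule thus takes in inducible activators, chaperones and regulators beside the constitutive subunits. Ctrl cells came from Upf1 Flox/Flox, Mb1 +/+ mice and Upf1-cKO cells from Upf1 Flox/Flox, Mb1 Cre/+ mice, with 3 libraries per group. Both groups thus carry the floxed *Upf1* alleles, and the Cre recombinase, which is expressed from the *Cd79a* (Mb1) locus of B lineage cells, is present in the Upf1-cKO group alone, so that Cre and loss of one *Cd79a* allele cannot be told apart from deletion of *Upf1*. Per the study's methods, the mice were age-matched, of both sexes and on a C57BL/6 background, and the cells were sorted by markers that included lineage-, B220+, sIgM-, CD43+, FSC-high and CD2-.

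The proteasome degrades proteins that have been tagged with ubiquitin. Its 20S core is a barrel of stacked alpha and beta rings, with the proteolytic sites on beta subunits inside, and the 19S particle that caps it recognises ubiquitin, removes it and unfolds the substrate with a ring of ATPases. Activators of the PSME family can open the barrel in place of the 19S particle, PSMG proteins chaperone assembly of the core, and the transcription factor NRF1, encoded by *Nfe2l1*, is known to raise transcription of the subunit genes together when proteasome capacity falls short. In lymphocytes, interferon-inducible subunits can replace the constitutive catalytic ones.

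Values are the authors' normalised reads, which are reads per gene (with 0.5 read added) scaled to a library size the authors had adjusted, a scale like CPM, and libraries held between 9732498 and 11006834 reads. Of the 46 genes, 45 had at least 30 reads in every library. The targeted gene was checked first. *Upf1* had 260.00, 203 and 259 normalised reads in Ctrl libraries 1, 2 and 3 and 308, 283 and 299.7 in Upf1-cKO libraries 1, 2 and 3. It was thus not lower in the libraries labelled Upf1-cKO (log2 fold change 0.31, adjusted p 0.00696), and since a row sums all exons of a gene it does not show the removed ones. B lineage markers were present at high levels, with a sum over 10 of 10 listed genes of 2507 to 2717 normalised reads in Ctrl and 2395 to 2498 in Upf1-cKO libraries. Of these genes 2 were higher and 3 were lower, of which *Cd79a* fell by 66.8%, *Vpreb3* fell by 53.3% and *Ptprc* fell by 44.5%. Of the T and NK cell list 1 of 5 genes had a row, at most 1.41 normalised reads, while the sum of 3 of 4 macrophage genes lay between 7.49 and 13.5 and that of 3 of 5 erythroid genes between 6.82 and 11.8. The 7 neutrophil genes listed summed to between 13.4 and 113 in Ctrl and between 313 and 441 in Upf1-cKO libraries, and 4 of them passed the test as higher. None of the 7 was at 0 reads in any library, and *Elane*, with 1 to 26 reads, was the lowest. Of 3 plasmacytoid dendritic cell genes, 2 were higher, with sums of 9.48 to 11.3 in Ctrl and 21.9 to 26.0 in Upf1-cKO libraries. Most of these sums came from *Bst2*, with means of 8.73 in Ctrl and 20.2 in Upf1-cKO libraries. The other higher gene, *Ccr9*, had means of 1.54 and 3.25, and *Siglech*, at 0.39 and 0.80, did not pass (adjusted p 0.175). *Ltf*, which encodes the granule protein lactoferrin, was at 28.0, 1.77 and 1.84 in Ctrl and 116, 82.7 and 86.1 in Upf1-cKO libraries, so Ctrl library 1 stood above the other Ctrl libraries. The part of such cells in the proteasome values was not tested. These are bulk samples, in which fewer cells of a type and less RNA per cell cannot be told apart.

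With limma fitted over all genes, 26 of the 46 genes were lower and 3 were higher at an adjusted p below 0.05, and 17 did not pass. Among all 13426 genes, 25.0% were lower and 27.7% were higher, and among the genes whose mean level lay in the range of the members (*Psma8* aside) 29.5% were lower and 29.3% were higher. The 26 lower genes fell by between 16.1% and 32.7% of their Ctrl mean. The median log2 fold change of the 46 genes was -0.27, against 0.01 for all genes. Summed over the 46 genes, Ctrl libraries 1, 2 and 3 held 4175, 4784 and 4759 normalised reads and Upf1-cKO libraries 3763, 3773 and 3770. The Upf1-cKO libraries were thus close to each other and below every Ctrl library, and Ctrl library 1, at 91.3% of the Ctrl mean, was the Ctrl library nearest to them. It was the lowest Ctrl library for 37 of the 46 genes, against 34.2% of all genes. In 25 genes every Upf1-cKO library was below every Ctrl library, and in 3 genes every one was above, where 28.0% and 30.9% of all genes did so. Of the 26 calls, 15 held whichever single library was left out.

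**Figure D1:**
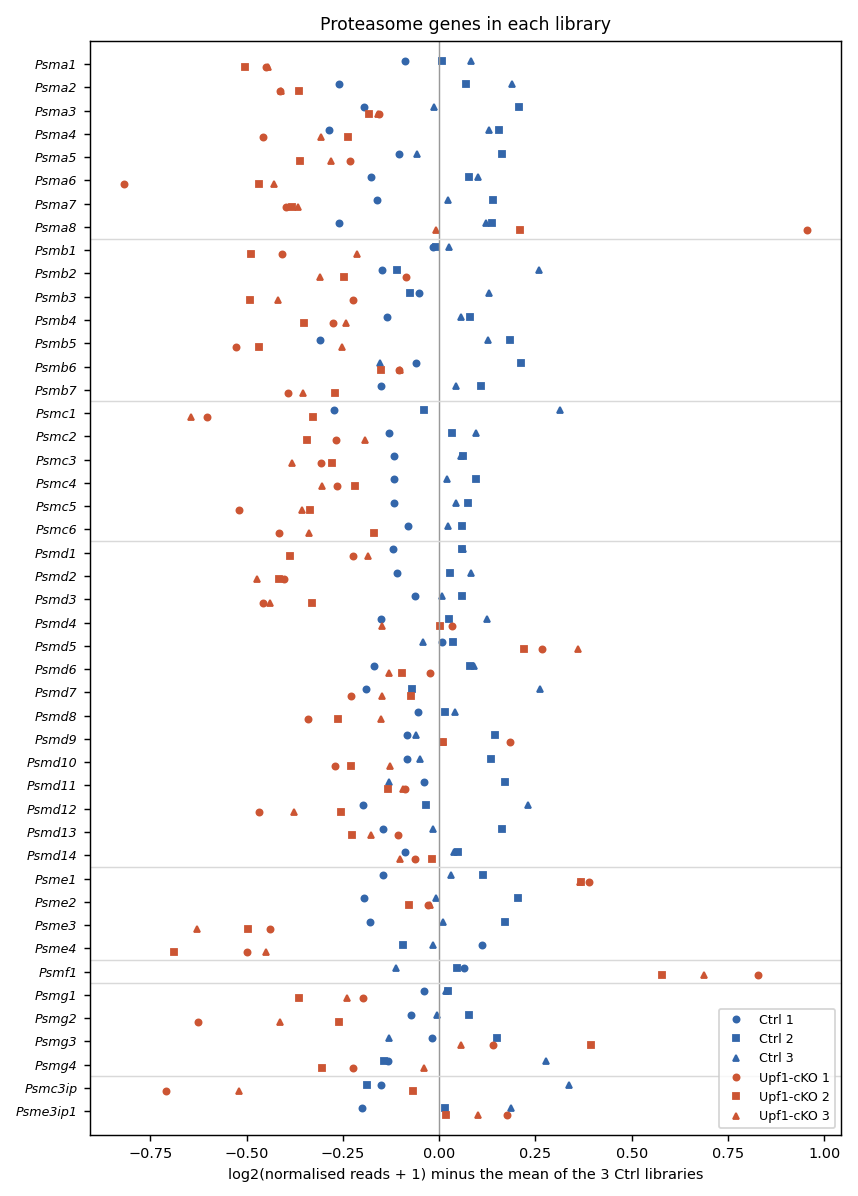
Level of each of the 46 proteasome genes in each library, as log2(normalised reads + 1) minus the mean of the 3 Ctrl libraries, with genes in rows by class and libraries as symbols. Most Upf1-cKO symbols lie left of 0 in the core and ATPase rows, and *Psme1*, *Psmf1* and *Psmd5* lie right of it.

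These counts depend on how libraries are scaled to each other. With scaling to total reads, the median for all genes moved to 0.19 on the log2 scale and that for the 46 genes to -0.07, and 5 genes (*Psma1*, *Psma6*, *Psmd2*, *Psme3* and *Psme4*) were lower and 6 were higher. Of all genes, 14.4% were lower and 38.5% higher with this scaling. Lower calls were thus no more frequent among the 46 genes than among all genes. With median centring, all genes moved to -0.10, the 46 genes to -0.38, and 34 were lower and 2 were higher, against 32.4% and 22.3% of all genes. The median of the 46 genes minus that of all genes was -0.28 as deposited, and 39 of the 46 lay below the median of all genes. Median centring and total reads shift all genes of a library alike and so leave this difference nearly fixed by construction, while with quantile normalization it was -0.21, with 36 genes below. With total reads the medians by class were -0.16 for alpha, -0.14 for beta, -0.11 for ATPase, -0.08 for activator and -0.04 for assembly genes, and that of the non-ATPase genes turned from -0.16 to 0.04. The fold changes below are on the deposited scale.

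**Figure D2:**
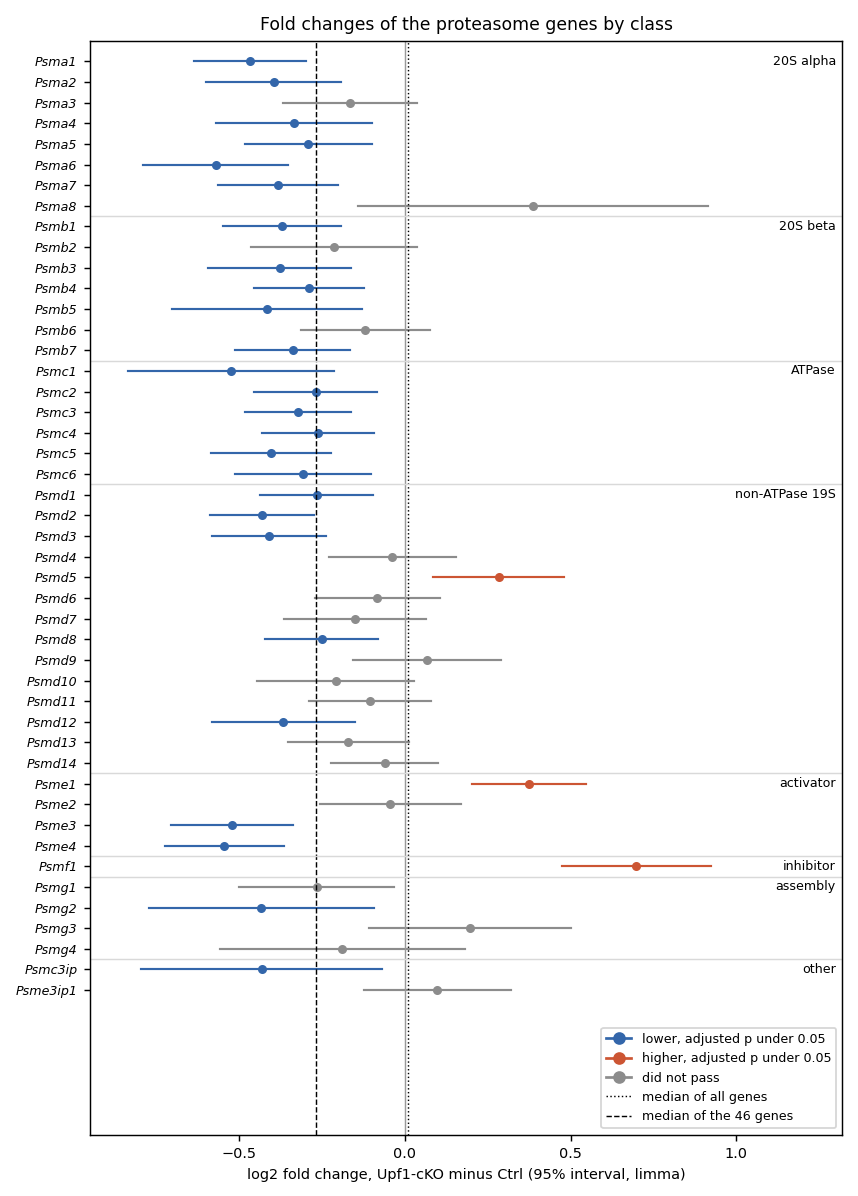
Log2 fold change (Upf1-cKO minus Ctrl, limma) of each of the 46 genes with its 95% interval, by class, with the medians of all genes (dotted) and of the 46 genes (dashed). All 6 ATPase genes lie left of 0, most non-ATPase genes overlap it, and *Psmf1* lies farthest to the right of the genes that passed.

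Alpha subunits form the outer rings of the core. Of the 8 genes, 6 were lower (against 29.5% of genes at like levels) and 0 were higher, with a median log2 fold change of -0.36. The same median over the 7 without *Psma8* was -0.38. With trends of transcript length and GC content taken out, an alternative chosen after the values were seen, the median of the 8 was -0.20, and *Psma4* and *Psma5* lost the call. *Psma6* (Entrez ID 26443, chromosome 12, 55384222 to 55418459, GRCm38, as for all positions here) had 120.3, 144 and 146 normalised reads in Ctrl libraries 1, 2 and 3 and 76.8, 98.2 and 101 in Upf1-cKO libraries 1, 2 and 3. The groups did not overlap, Upf1-cKO library 1 was the lowest of all, and the gene fell by 32.7% (log2 fold change -0.57, SE 0.104, adjusted p 0.000166). *Psma1* (Entrez ID 26440, chromosome 7, 114264550 to 114276116) had 108, 116 and 122 normalised reads in Ctrl libraries 1, 2 and 3 and 83.9, 80.8 and 84.3 in Upf1-cKO libraries 1, 2 and 3. Its groups were separated by more than their spread, with a fall of 27.9% (log2 fold change -0.47, SE 0.081, adjusted p 8.75e-05). *Psma2* (Entrez ID 19166, chromosome 13, 14613242 to 14625673) stood at 119, 149 and 162 in Ctrl and 107, 110.4 and 107 in Upf1-cKO libraries, also without overlap, with a spread in Ctrl that came from a low library 1 (log2 fold change -0.40, SE 0.097, adjusted p 0.00219). *Psma7* fell by 23.8%, *Psma4* by 21.6% and *Psma5* by 18.8%. The calls for *Psma4* and *Psma5* were lost without Ctrl library 2, at adjusted p 0.0911 and 0.0622, and in other such fits given with the limits. *Psma3* did not pass, with a log2 fold change of -0.17 and a 95% interval from -0.37 to 0.04. *Psma8*, which encodes an alpha subunit known from testis, had between 7 and 32 reads per library (0.797, 1.36 and 1.34 in Ctrl and 3.17, 1.49 and 1.14 in Upf1-cKO libraries) and did not pass (adjusted p 0.209).

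Beta subunits form the inner rings, and those encoded by *Psmb5*, *Psmb6* and *Psmb7* carry the proteolytic sites of the constitutive core. Of the 7 genes, 5 were lower (against 29.5% of genes at like levels) and 0 were higher, with a median log2 fold change of -0.34. Without the length and GC trends this median was -0.19, and *Psmb3* and *Psmb5* lost the call. With total reads all 5 lost it. *Psmb5* (Entrez ID 19173, chromosome 14, 54614120 to 54617995), the chymotrypsin-like subunit, had 22.7, 32.4 and 31.0 normalised reads in Ctrl libraries 1, 2 and 3 and 19.4, 20.2 and 23.6 in Upf1-cKO libraries 1, 2 and 3. Its values overlapped between the groups, since Ctrl library 1 lay below Upf1-cKO library 3 (log2 fold change -0.42, SE 0.137, adjusted p 0.0159), and the call was lost without Ctrl library 2 (adjusted p 0.0835), Ctrl library 3 (0.0563), Upf1-cKO library 1 (0.0726) or Upf1-cKO library 2 (0.0573). *Psmb3* (Entrez ID 26446, chromosome 11, 97703434 to 97713500), a non-catalytic subunit, had 48.8, 47.9 and 55.5 normalised reads in Ctrl libraries 1, 2 and 3 and 43.2, 35.7 and 37.6 in Upf1-cKO libraries 1, 2 and 3 (log2 fold change -0.38, SE 0.103, adjusted p 0.00464). The groups did not overlap, and they did not in *Psmb1* (Entrez ID 19170, chromosome 17, 15475721 to 15498276) at 118, 119 and 122 in Ctrl and 89.9, 84.9 and 103 in Upf1-cKO libraries (log2 fold change -0.37, SE 0.085, adjusted p 0.00127). *Psmb7*, the trypsin-like subunit, fell by 21.3% and *Psmb4* by 18.4%, both in each fit with 1 library left out. *Psmb6*, the caspase-like subunit, was at 100.02, 121 and 93.8 in Ctrl and 96.9, 93.9 and 97.2 in Upf1-cKO libraries, a log2 fold change of -0.12 with a 95% interval from -0.31 to 0.07, and *Psmb2* had -0.21 with an interval from -0.47 to 0.04. Neither passed, and both intervals include 0. Over the 14 core genes without *Psma8* the summed level was 1482 ± 129 in Ctrl and 1163 ± 23.8 in Upf1-cKO libraries (SD, n = 3 per group). Levels per kb of transcript differed between these genes up to 6.50-fold in either group, from *Psma3* to *Psmb4* in Ctrl and from *Psmb5* to *Psmb4* in Upf1-cKO libraries.

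Because subunit genes are known to share control through an antioxidant response element bound by NRF1, promoters were searched for its core TGACNNNGC on both strands, in RefSeq windows of GRCm38.p6 from 250 bases before to 50 bases after each transcript start. Windows were found for 38 of the 46 genes, 42 windows in all. The letters occurred in 6 of them (14.3%), against 14.1% of the 12877 windows of genes in the table. The 6 genes were *Psmb5*, *Psmb6*, *Psmc6*, *Psmd9*, *Psmd12* and *Psme4*, of which 4 were lower and 0 were higher. CCAAT was found in 33.3% of the 42 windows against 37.9% of all, and CACGTG in 9.52% against 9.92%. CCGGAAG, the core bound by ETS factors, was found in 40.5% against 17.4%, in 16 genes of which 9 were lower, a share like that of all members (26 of 46), and AAGATGGCG, bound by YY1, in 4.76% against 2.94%. Some windows come from the same gene, and a match is a description of the letters and not a bound site. The windows of the catalytic pair *Psmb5* and *Psmb6*, of which the first passed as lower and the second did not, are shown from 120 bases before to 30 bases after the start, with the TGACNNNGC match in capitals.
Psmb5 (chr14:54617966-54618115, minus strand): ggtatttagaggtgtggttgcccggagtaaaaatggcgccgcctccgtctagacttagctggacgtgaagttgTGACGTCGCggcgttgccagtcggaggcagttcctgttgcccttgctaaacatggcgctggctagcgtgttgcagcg
Psmb6 (chr11:70525237-70525386, plus strand): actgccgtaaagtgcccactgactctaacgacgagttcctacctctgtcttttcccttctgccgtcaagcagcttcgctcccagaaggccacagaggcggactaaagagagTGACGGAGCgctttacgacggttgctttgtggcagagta

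All 6 genes of the ATPase ring, which unfolds substrates, were lower, against 29.5% of genes at like levels. Their median log2 fold change was -0.32, their range -0.53 to -0.26, and in none did the groups overlap. Of all genes, 28.0% had every Upf1-cKO library below every Ctrl library. Scaled to total reads, all 6 lost the call, with log2 fold changes from -0.32 (*Psmc1*) to -0.06 (*Psmc4*). *Psmc1* (Entrez ID 19179, chromosome 12, 100110202 to 100123364) had 134, 158 and 202 normalised reads in Ctrl libraries 1, 2 and 3 and 107, 129 and 103 in Upf1-cKO libraries 1, 2 and 3. Ctrl library 3 was the highest and both groups were spread, so its SE was among the larger ones (log2 fold change -0.53, SE 0.139, adjusted p 0.00887), and the call was lost without Ctrl library 2 (log2 fold change -0.55, adjusted p 0.0606). *Psmc5* (Entrez ID 19184, chromosome 11, 106256185 to 106263112) had 99.5, 114 and 111 normalised reads in Ctrl libraries 1, 2 and 3 and 75.0, 85.4 and 84.2 in Upf1-cKO libraries 1, 2 and 3, a fall of 24.6% (log2 fold change -0.40, SE 0.087, adjusted p 0.000701). *Psmc3* (Entrez ID 19182, chromosome 2, 91054016 to 91059438), the most abundant of the ring per kb, was at 209, 237 and 236 in Ctrl and 183, 187 and 174 in Upf1-cKO libraries (log2 fold change -0.32, SE 0.077, adjusted p 0.0017). Both were lower in every fit with 1 library left out. *Psmc6* fell by 19.4%, *Psmc2* by 17.3% and *Psmc4* by 17.0%, and each of these calls was lost in some of those fits. *Psmc6* also lost it without the length and GC trends. The summed level of the ring was 774 ± 70.6 in Ctrl and 601 ± 25.7 in Upf1-cKO libraries (SD, n = 3 per group).

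Of 14 non-ATPase genes of the 19S particle, 5 were lower, 1 was higher and 8 did not pass, with a median log2 fold change of -0.16. This median was -0.25 without Ctrl library 1 and -0.10 with quantile normalization. The share of lower genes was near the 29.5% of genes at like levels. The 14 include 3 genes of assembly chaperones, of which 0 were lower (median 0.07), so the 5 lower genes were all among the lid and base genes. The medians of these were -0.16 for the lid and -0.27 for the base. Of 3 genes of the base, *Psmd1* and *Psmd2*, which encode its large scaffold subunits, were lower, and *Psmd4*, which encodes a ubiquitin receptor, did not pass. *Psmd2* (Entrez ID 21762, chromosome 16, 20651122 to 20663414) had 263, 289 and 300.2 normalised reads in Ctrl libraries 1, 2 and 3 and 214, 212 and 204 in Upf1-cKO libraries 1, 2 and 3. The groups lay well apart, and the gene fell by 26.0% (log2 fold change -0.43, SE 0.075, adjusted p 9.32e-05). *Psmd1* fell by 16.9% (adjusted p 0.0101), a call lost without Upf1-cKO library 2 (0.0842) and with quantile normalization. *Psmd4* was at 79.5, 90.1 and 96.5 in Ctrl and 90.4, 88.6 and 79.7 in Upf1-cKO libraries, with a 95% interval of its log2 fold change from -0.23 to 0.15. Of the 8 genes of the lid, which removes ubiquitin, 3 were lower and 5 did not pass. *Psmd3* (Entrez ID 22123, chromosome 11, 98682554 to 98695978) had 97.3, 106 and 102 normalised reads in Ctrl libraries 1, 2 and 3 and 73.7, 80.7 and 74.7 in Upf1-cKO libraries 1, 2 and 3 without overlap (log2 fold change -0.41, SE 0.082, adjusted p 0.000379). *Psmd12* (Entrez ID 66997, chromosome 11, 107479528 to 107498036) was at 77.7, 87.1 and 105 in Ctrl and 64.2, 74.6 and 68.4 in Upf1-cKO libraries (log2 fold change -0.37, SE 0.103, adjusted p 0.00577), and *Psmd8* fell by 16.1% (adjusted p 0.0143), a call lost without Upf1-cKO library 1 (0.0931) or 2 (0.0519). *Psmd14*, which encodes the deubiquitinase of the lid, was at 126, 138 and 137 in Ctrl and 128, 132 and 124 in Upf1-cKO libraries, and its log2 fold change of -0.06 had an interval from -0.22 to 0.10. Its values overlapped between the groups, as did those of its partner *Psmd7* (-0.15, -0.37 to 0.06). *Psmd6* (-0.08, -0.27 to 0.10), *Psmd11* (-0.11, -0.29 to 0.08) and *Psmd13* (-0.17, -0.35 to 0.01) did not pass either, and without Ctrl library 1 *Psma3*, *Psmd7* and *Psmd13* passed as lower, at adjusted p 0.0189, 0.0401 and 0.0178.

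*Psmd5*, *Psmd9* and *Psmd10* encode chaperones that help the base assemble and leave the finished particle. *Psmd5* (Entrez ID 66998, chromosome 2, 34852087 to 34870965) had 38.6, 39.5 and 37.3 normalised reads in Ctrl libraries 1, 2 and 3 and 46.5, 44.9 and 49.6 in Upf1-cKO libraries 1, 2 and 3. Every Upf1-cKO library was above every Ctrl library (log2 fold change 0.28, SE 0.094, adjusted p 0.0172), a rise of 22.3%. The call was lost without Upf1-cKO library 3 (adjusted p 0.0900) and with median centring. *Psmd9* had a log2 fold change of 0.07 (-0.16 to 0.29) and *Psmd10*, which encodes gankyrin, -0.21 (-0.45 to 0.03). Of the core chaperone genes, *Psmg2* (Entrez ID 107047, chromosome 18, 67641587 to 67654181) was at 10.1, 11.4 and 10.7 in Ctrl and 6.59, 8.79 and 7.80 in Upf1-cKO libraries (log2 fold change -0.43, SE 0.162, adjusted p 0.0309) on 67 to 112 reads per library, and its call was lost without Ctrl library 2 (adjusted p 0.0820), Ctrl library 3 (0.0608), Upf1-cKO library 1 (0.134) or Upf1-cKO library 3 (0.0650), and without the length and GC trends. *Psmg1*, whose product pairs with that of *Psmg2*, was at 26.7, 27.9 and 27.9 in Ctrl and 23.9, 21.1 and 23.1 in Upf1-cKO libraries without overlap and stood at adjusted p 0.0516, and it passed as lower under 5 alternatives, among them median centring, quantile normalization and voom. *Psmg3* (0.20, -0.11 to 0.50) and *Psmg4* (-0.19, -0.56 to 0.18), whose products form the other pair, did not pass.

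Genes of the activators moved in opposite directions. *Psme3* encodes PA28 gamma, a nuclear activator, and *Psme4* encodes PA200, a large nuclear activator of a different fold. *Psme3* (Entrez ID 19192, chromosome 11, 101316213 to 101323537) had 247, 315 and 282 normalised reads in Ctrl libraries 1, 2 and 3 and 206, 198 and 181 in Upf1-cKO libraries 1, 2 and 3. The groups did not overlap, and the gene fell by 30.7% (log2 fold change -0.52, SE 0.088, adjusted p 6.79e-05). *Psme4* (Entrez ID 103554, chromosome 11, 30771775 to 30881150) had 177, 153 and 161 normalised reads in Ctrl libraries 1, 2 and 3 and 115, 101 and 119 in Upf1-cKO libraries 1, 2 and 3, again without overlap, and fell by 31.6% (log2 fold change -0.55, SE 0.086, adjusted p 3.13e-05). Both remained lower with total reads. The annotated *Psme4* gene overlaps *Erlec1*, which rose (log2 fold change 0.68) at 32.2% of the *Psme4* level, and reads were counted without strand.

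*Psme1* and *Psme2* encode PA28 alpha and PA28 beta, which form 1 ring together and are known to be induced by interferon. *Psme1* (Entrez ID 19186, chromosome 14, 55578494 to 55581527) had 105, 126 and 119 normalised reads in Ctrl libraries 1, 2 and 3 and 152, 150.1 and 149.8 in Upf1-cKO libraries 1, 2 and 3. The Upf1-cKO libraries agreed closely and all lay above the Ctrl libraries, a rise of 29.5% (log2 fold change 0.37, SE 0.082, adjusted p 0.000824) that held with each scaling and each library left out. The overlapping gene *Emc9* had between 1 and 31 reads, 1.10% of the *Psme1* level. *Psme2* (Entrez ID 19188, chromosome 14, 55587440 to 55591101) had 51.3, 67.9 and 58.4 normalised reads in Ctrl libraries 1, 2 and 3 and 57.6, 55.7 and 57.8 in Upf1-cKO libraries 1, 2 and 3. Its groups overlapped, and the 95% interval of its log2 fold change ran from -0.26 to 0.17. The log2 ratio of *Psme1* to *Psme2* within a library, a comparison chosen after the values were seen, was 1.02, 0.88 and 1.01 in Ctrl libraries and 1.38, 1.41 and 1.36 in Upf1-cKO libraries. The groups did not overlap, and the difference of 0.42 had an exact permutation p of 0.1, the smallest that 3 against 3 libraries allow. The log2 ratio of *Psme1* to *Psme3* was also chosen after the values were seen. It was -1.23, -1.32 and -1.24 in Ctrl and -0.44, -0.40 and -0.27 in Upf1-cKO libraries, a difference of 0.90 (exact permutation p 0.1). Both genes had separated groups, in opposite directions, so this ratio had to separate and its p was fixed at 0.1. It adds no test to the results of the single genes. Per kb of transcript, *Psme1* and *Psme3* stood at 105 and 106 normalised reads in Ctrl, and at 135 and 73.3 in Upf1-cKO libraries.

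**Figure D3:**
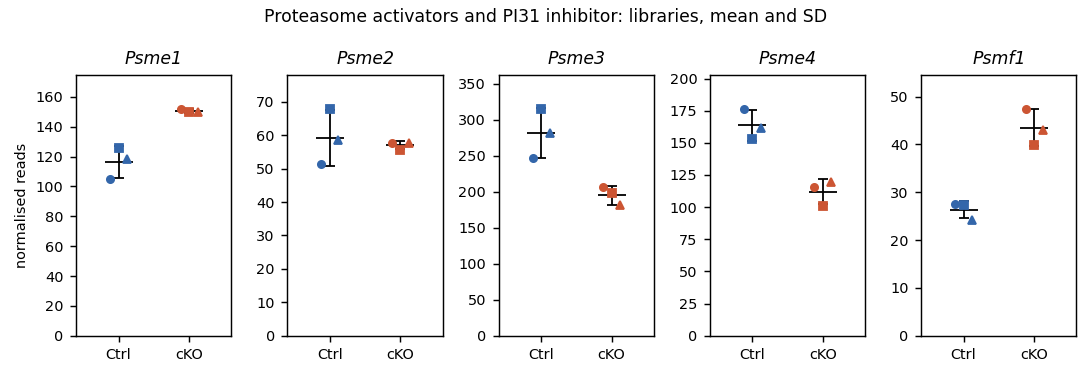
Normalised reads of the 4 activator genes and of *Psmf1* in each library (symbols) with group mean and SD (n = 3 per group), each axis starting at 0. *Psme1* and *Psmf1* are higher, *Psme3* and *Psme4* lower, and *Psme2* overlaps between Ctrl and Upf1-cKO (cKO).

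The interferon-stimulated response element, searched as GAAA, 2 bases of any kind and GAAA again on both strands of the same windows, occurred in 5 of the 42 windows (11.9%) against 3.10% of all windows, in *Psmb3*, *Psmd4*, *Psmd9*, *Psme1* and *Psmg4*. Of these genes 1 was higher, *Psme1*, and 1 was lower, *Psmb3*. Windows of *Psme1* and of *Psme2*, neighbours on chromosome 14 whose products share a ring and of which the first passed as higher and the second did not pass, are shown from 120 bases before to 30 bases after the start, with the match in capitals where there is one. The *Psme2* window shown is 1 of the pair listed for that gene, neither of which holds the letters.
Psme1 (chr14:55578374-55578523, plus strand): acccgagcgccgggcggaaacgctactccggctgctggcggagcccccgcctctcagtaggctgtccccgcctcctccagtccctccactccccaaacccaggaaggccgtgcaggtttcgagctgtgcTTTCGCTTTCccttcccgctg
Psme2 (chr14:55591072-55591221, minus strand): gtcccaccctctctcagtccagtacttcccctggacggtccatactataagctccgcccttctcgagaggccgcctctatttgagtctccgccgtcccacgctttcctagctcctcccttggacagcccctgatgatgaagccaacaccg

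*Psmf1* encodes PI31, which binds the core and inhibits it in vitro. *Psmf1* (Entrez ID 228769, chromosome 2, 151716062 to 151744199) had 27.6, 27.2 and 24.3 normalised reads in Ctrl libraries 1, 2 and 3 and 47.5, 39.8 and 43.0 in Upf1-cKO libraries 1, 2 and 3. The lowest Upf1-cKO library was well above the highest Ctrl library, and the rise of 64.8% was the largest among the members that passed (log2 fold change 0.70, SE 0.107, adjusted p 2.4e-05). It passed as higher with every scaling and without any single library. Of the genes matched by letters alone, *Psmc3ip* was at 18.2, 17.7 and 26.0 in Ctrl and 12.1, 19.3 and 13.9 in Upf1-cKO libraries (log2 fold change -0.43, SE 0.173, adjusted p 0.0436), with overlapping groups, and the call was lost without Ctrl library 3 (adjusted p 0.215), Upf1-cKO library 1 (0.204) or Upf1-cKO library 3 (0.131), and without the length and GC trends. It overlaps *Mlx*, which was at 113% of its level and was itself lower (log2 fold change -0.53, adjusted p 0.0013), and reads were counted without strand. *Psme3ip1* did not pass (0.10, -0.12 to 0.32).

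The constitutive catalytic genes were next set against the immunoproteasome genes that can replace them. Per kb of transcript, *Psmb8*, which encodes the inducible counterpart of *Psmb5*, stood above it in every library, at 3.004 to 4.71 times its level. *Psmb9* was below *Psmb6*, at 0.388 to 0.612 times, and *Psmb10* was below *Psmb7*, at 0.256 to 0.304 times. Within a library, the log2 ratio of *Psmb8* to *Psmb5* was 2.60, 2.41 and 2.48 in Ctrl libraries and 2.93, 3.03 and 2.73 in Upf1-cKO libraries. The groups did not overlap, and the difference was 0.40 (exact two-sided permutation p 0.1, adjusted over the 3 ratios 0.15). For *Psmb9* to *Psmb6* the ratio was -0.42, -0.60 and -0.44 in Ctrl and -0.26, -0.23 and 0.05 in Upf1-cKO libraries, which again did not overlap, a difference of 0.34 (exact permutation p 0.1, adjusted 0.15). For *Psmb10* to *Psmb7* the ratios overlapped and differed by 0.10 (exact permutation p 0.3). No p below 0.1 can be had with 3 libraries per group. In limma *Psmb8* (-0.02, adjusted p 0.881) and *Psmb9* (0.22, adjusted p 0.0699) did not pass, and *Psmb10* was lower (-0.24, adjusted p 0.0355). *Psmb9* passed as higher without Ctrl library 2 (adjusted p 0.0469), with quantile normalization, with total reads and without the length and GC trends (0.0288). Its Upf1-cKO libraries 1, 2 and 3 stood at 80.6, 79.7 and 101 normalised reads. Without library 3 of these, and with median centring, its rise was smaller and did not pass. The call for *Psmb10* was lost with total reads, without the length and GC trends (0.0569), in the fit with neither intensity trend nor robust estimation (0.0555) and without any library other than Ctrl library 1, at adjusted p from 0.0583 to 0.147.

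**Figure D4:**
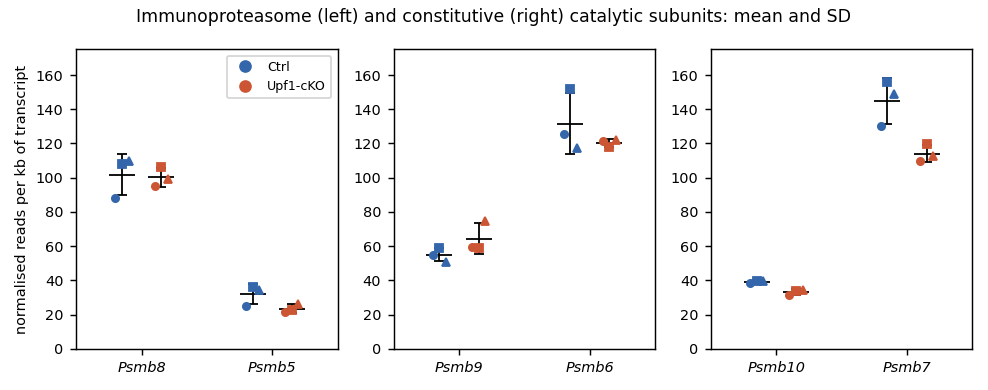
Normalised reads per kb of transcript for each immunoproteasome gene (left in a panel) and its constitutive counterpart (right), in Ctrl and Upf1-cKO libraries (symbols) with mean and SD (n = 3 per group). *Psmb8* lies above *Psmb5* in all libraries, while *Psmb9* and *Psmb10* lie below *Psmb6* and *Psmb7*.

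Other genes of the ubiquitin-proteasome pathway were described from lists outside the symbol rule. Of 46 genes listed, 43 had a row, 18 of them were lower and 8 were higher, with a median log2 fold change of -0.16. The shares over all genes were 25.0% and 27.7%. With total reads 8 were lower and 14 higher, against 14.4% and 38.5% of all genes. *Sem1*, the smallest subunit of the lid, had 66.8, 77.1 and 80.9 normalised reads in Ctrl libraries 1, 2 and 3 and 47.8, 47.0 and 51.3 in Upf1-cKO libraries 1, 2 and 3. It was lower without overlap (log2 fold change -0.61, SE 0.094, adjusted p 2.74e-05), and so was *Pomp*, the maturation factor of the core, at 65.0, 78.5 and 82.5 in Ctrl and 49.3, 54.1 and 53.4 in Upf1-cKO libraries (log2 fold change -0.51, SE 0.098, adjusted p 0.000256). *Txnl1*, a thioredoxin-like protein bound to the 19S particle, was lower (log2 fold change -0.48, adjusted p 0.00019) and *Ipo9*, an importin, was higher (0.36, adjusted p 0.000321). These genes belong to the list of ubiquitin-binding subunits and the list of assembly and nuclear import factors. The other 4 calls of those lists were lost when certain single libraries were left out. *Adrm1*, a ubiquitin receptor of the base, had a log2 fold change of -0.26 (adjusted p 0.0281) and kept its call only without Ctrl library 1, the other 5 fits giving 0.0645 to 0.0901. *Akirin2*, a nuclear import factor for proteasomes, had -0.22 (adjusted p 0.0431) and likewise kept it only without Ctrl library 1 (0.0822 to 0.122 in the others). *Usp14*, a deubiquitinase bound to the base, had -0.21 (adjusted p 0.0477) and lost it without Ctrl library 2 or any Upf1-cKO library (0.0726 to 0.183). *Uchl5*, the other deubiquitinase bound there, was higher (0.38, adjusted p 0.0292) with overlapping groups, and lost the call without Ctrl library 1 or 2 or Upf1-cKO library 2 or 3 (0.0773 to 0.145). With quantile normalization *Usp14* (adjusted p 0.105) and *Akirin2* (0.0691) lost their calls, as they did with replicate number as a block (0.0644 and 0.0538).

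Of 9 genes of the NRF1 pathway, 3 were higher and 3 were lower, shares near those of all genes (27.7% and 25.0%). *Nfe2l1* had 86.6, 94.8 and 100.4 normalised reads in Ctrl libraries 1, 2 and 3 and 117, 124 and 120.4 in Upf1-cKO libraries 1, 2 and 3. Every Upf1-cKO library was above every Ctrl library (log2 fold change 0.36, SE 0.082, adjusted p 0.0012). *Ngly1*, the glycanase that processes NRF1, was at 41.2, 43.5 and 48.5 in Ctrl and 64.4, 69.6 and 68.2 in Upf1-cKO libraries (log2 fold change 0.59, SE 0.093, adjusted p 3.13e-05), and *Mafg*, which encodes a dimer partner, was higher by a log2 fold change of 0.94 (adjusted p 0.000111). The protease gene *Ddi2*, with a log2 fold change of 0.18, did not pass (adjusted p 0.138). *Nfe2l2*, which encodes the related factor NRF2, was lower (-0.89, adjusted p 3.35e-05), as were *Syvn1* (-0.72) and *Fbxw7* (-0.36), which encode ubiquitin ligase components. Of 4 genes for E1 enzymes and ubiquitin ligases bound to the proteasome, 1 was lower, 0 were higher, and the median log2 fold change was -0.02. *Uba1*, the main ubiquitin-activating enzyme, had 359.96, 384 and 363 normalised reads in Ctrl libraries 1, 2 and 3 and 244, 232 and 229 in Upf1-cKO libraries 1, 2 and 3, without overlap (log2 fold change -0.65, SE 0.071, adjusted p 4.13e-07). *Uba6* (-0.11), *Ube3c* (0.06) and *Ube3a* (0.09) did not pass. Of the ubiquitin genes, *Rps27a*, which encodes ubiquitin fused to a ribosomal protein, was lower (-0.67), and *Ubb* did not pass (-0.04). Among 8 genes of shuttle factors and the related ZFAND family, of which 2 were lower and 1 was higher, shares no larger than those of all genes, *Ubqln1* (-0.30) and *Ubqln2* (-0.58) were lower and *Zfand2a*, a heat-inducible proteasome-binding factor, was higher (0.97). Of 10 genes of the p97 unfoldase, against 25.0% lower and 27.7% higher of all genes, 4 were lower, among them *Ubxn1* (-0.41), and 2 were higher, *Ufd1* (0.48) and *Ubxn7* (0.44). *Vcp*, which encodes p97 itself, was lower (-0.22) with overlapping groups, and lost the call without Ctrl library 2 or Upf1-cKO library 2 or 3 (adjusted p 0.123 to 0.165). With quantile normalization *Vcp* had -0.095 (adjusted p 0.352). It also lost the call with replicate number as a block (0.0563) and in the fit with neither intensity trend nor robust estimation (0.135). The other lower genes, *Faf2* and *Ube4b*, lost theirs without Upf1-cKO library 2 as well (0.128 and 0.0881), so that without that library *Ubxn1* was the 1 lower gene of the list. *Faf2* also lost it without Ctrl library 1 (0.0827) or Upf1-cKO library 1 (0.122), and *Ube4b* without Ctrl library 2 (0.0794) or Upf1-cKO library 1 (0.0797) or 3 (0.107).

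**Figure D5:**
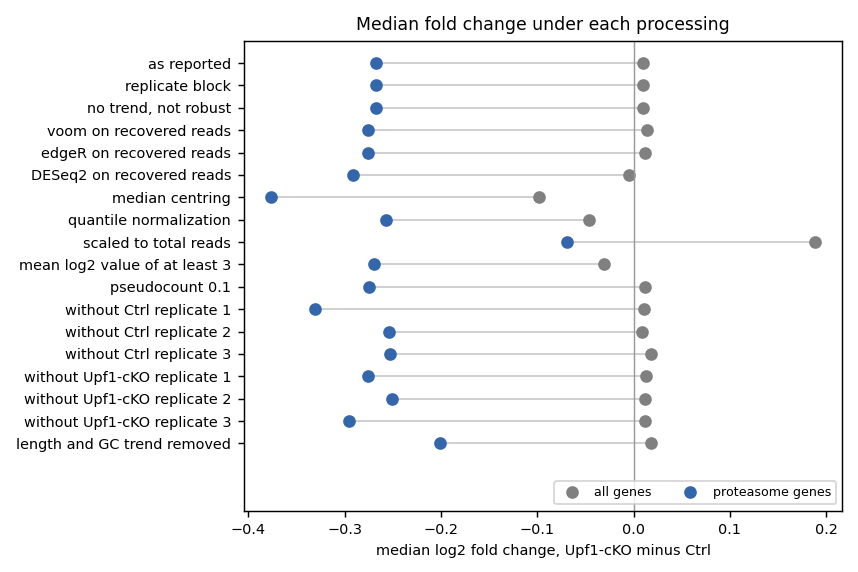
Median log2 fold change (Upf1-cKO minus Ctrl) of all genes and of the 46 proteasome genes under each processing, 1 per row. The 46 genes lie below all genes in every row, with differences from -0.34 to -0.21, while the position of both medians against 0 shifts with the scaling.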

How the data were processed

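Sorted early LPre-B cells gave 3 Ctrl and 3 Upf1-cKO RNA sequencing libraries, grouped by the sample labels. Libraries were made after rRNA depletion with a directional kit. Per the labels and the study's methods, reads were trimmed with cutadapt 4.0, aligned to mm10 with HISAT2 (single end, without strand), counted per gene with featureCounts 2.0.1 and processed with limma 3.48.0. The deposited signal is linear, and its values behave as (reads + 0.5) scaled to an adjusted library size, close to CPM. Whole reads (within 0.01) were recovered for 99.995% of values and totalled 9732498 to 11006834 per library. Entrez IDs were named from RefSeq GRCm38.p6 (13008) and GENCODE M21 (3), leaving 415 unnamed.

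The test was limma 3.58.1 (R 4.3.3) of log2 values after adding a pseudocount of 1, which understates changes of low genes, with intensity trend, robust eBayes and Benjamini-Hochberg adjustment over 13426 genes. All adjusted p-values are from this fit unless stated. Calls require an adjusted p below 0.05. Lengths per kb are of the principal GENCODE transcript (APPRIS), so levels between genes depend on that choice. Sums and medians over genes carry no test. On simulated counts the fit was tested before use. Tried besides it were 3 other scalings, voom, edgeR 4.0.16 and DESeq2 1.42.0 on recovered reads, a fit with a block for replicate number, one lacking both the trend and robust estimation, a minimum mean log2 value of 3, another pseudocount (0.1), and omission of single libraries. Ratios of genes were compared by exact permutation over the 20 assignments of 6 libraries.

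Genes given with the values of every library are, in each class, the 3 called members with the largest change and any called against most of its class, with at most 4 called genes per related list. *Psma8*, *Psmb6*, *Psmd4*, *Psmd14*, *Psme2*, *Psmg1* and *Ltf* were added after their values were seen. Some items are not reported here. Members, lists and tests were chosen with earlier results of these data known. Within groups, libraries differed beyond counting noise (chi-square over degrees of freedom, 4.39 to 22.0), and replicates are biological per the study's methods. The annotated genes of 14 members overlap another gene, and processed pseudogenes may share reads with subunit genes.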

Additional observations from a re-analysis of the deposited data

How the results depend on the processing

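The *Psme1* ratios and a fit with length and GC trends taken out (known for 90.5% of genes) were chosen after seeing the data. Without those trends, 20 members were lower and 3 higher, and the medians of the alpha, beta and assembly genes were -0.20, -0.19 and -0.06. Scaled to total reads, 5 members were lower and 6 higher with a median log2 fold change of -0.0692, the median of the non-ATPase genes turned to 0.0413, *Ube4b* turned to 0.00598 and did not pass, and 8 related genes were lower and 14 higher. With median centring the median of the members was -0.38. The *Upf1* value was 0.20 and lost its call with median centring, and it lost the call at 0.31 in the fit with neither intensity trend nor robust estimation. These scalings shift all genes, as given above, and with total reads 14.4% of all genes were lower and 38.5% higher. Median centring gave 34 lower and 2 higher members, against 32.4% and 22.3% of all genes. The other processing alternatives gave 18 (neither trend nor robust estimation) to 27 lower and 3 higher members, the fit with 18 losing *Psma4*, *Psma5*, *Psmb5*, *Psmc2*, *Psmc4*, *Psmd1*, *Psmd8*, *Psmd12* and *Psmc3ip* and gaining *Psmg1*, and edgeR and DESeq2 each gave 26 and 3.

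Leaving out each library gave 19 to 29 lower and 2 to 3 higher members, medians from -0.33 to -0.25, 12 to 19 lower and 7 to 8 higher related genes, and *Upf1* values from 0.19 to 0.37. The ratio differences ran from 0.33 to 0.48 for *Psmb8* to *Psmb5*, from 0.24 to 0.40 for *Psmb9* to *Psmb6* and from 0.06 to 0.16 for *Psmb10* to *Psmb7*. In these fits 11 of the 26 lower members lost the call at least once. Besides those given above, *Psma4* lost it without Ctrl library 3 (adjusted p 0.0643) or Upf1-cKO library 1 (0.0958), *Psma5* without Upf1-cKO library 2 (0.0623), *Psmc2* without Ctrl library 3 (0.0583), Upf1-cKO library 1 (0.0509) or 2 (0.0806), *Psmc4* without Upf1-cKO library 3 (0.0550) and *Psmc6* without Upf1-cKO library 1 (0.0769) or 3 (0.0517).

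With the replicate number as a block, 26 members were lower and 3 higher, as without it, and the related genes *Usp14*, *Akirin2*, *Vcp* and *Ube4b* lost the call. Same-numbered libraries deviated with correlations of 0.08, -0.03 and -0.02. The column names give neighbouring serial numbers to same-numbered Ctrl and Upf1-cKO libraries, so joint handling is possible. The labels do not say what a shared number stands for, and the libraries were not treated as pairs. Of the 17 members that did not pass, 13 had a 95% interval that excluded the median of the lower members (-0.38 on the log2 scale), and for the other 4 a fall of that size lies within the interval. Both sides of this comparison were set by the same test, so it does not show that the 13 differ from the other members. The median of all 46 genes (-0.27) lies within the intervals of several of the 13, among them *Psma3* and *Psmd7*.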
